A study of Mus musculus with 9 samples.

Results

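Chemokine and chemokine receptor genes were examined in liver RNA of mice labelled as having or lacking macrophage scavenger receptor 1, a surface receptor (gene Msr1) through which macrophages take up modified lipoproteins. The genes were chosen by a name rule, with earlier results of these data known. It took every row whose symbol begins with Ccl, Cxcl, Cx3cl, Xcl, Ccr, Cxcr, Cx3cr, Xcr or Ackr and goes on with a digit. This gave 43 of the 17442 genes listed, 27 ligands and 16 receptors. Of these, 26 averaged at least 10 normalised counts and were tested, 15 ligands and 11 receptors.

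All animals were male C57BL/6 mice labelled as having non-alcoholic fatty liver disease, kept for 16 weeks on a diet high in fat and cholesterol. The 4 wild-type livers carry the label Msr1+/+ and the 5 others the label Msr1-/-. Each liver is 1 animal and 1 library. No group on another diet is among them, so each level below is a level under this diet. The labels give neither the age of the mice nor how the deletion was made, and do not say whether the wild types were littermates.

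Chemokines are small secreted proteins that steer leukocytes through tissue by binding receptors of the G protein-coupled class on the cell surface. CC and CXC ligands are named for the spacing of their first cysteines, and a receptor is named for the class it binds. Atypical receptors bind chemokines without G protein signalling and take them up or carry them across cells. In fatty liver, ligands of CCR2 draw monocytes, ligands of CXCR2 draw neutrophils, and ligands of CXCR3 draw T cells.

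The promoters below are shown because they belong to 3 ligands whose genotypes did not overlap (Cxcl1, Cxcl14 and Ccl6), to Cxcl2, a nearby gene with a low level here, and to Cxcl10, an interferon-induced ligand that was not called. Each run holds the 250 bases before the transcription start in RefSeq's GRCm38.p6 entry, 5′ to 3′ on the gene's strand. Capitals mark matches, on either strand, to the NF-kB consensus, to the core of the interferon-stimulated response element (GAAA, any 2 bases, GAAA) or to TGANTCA (AP-1).
Cxcl1 (chr5:90890995-90891244, plus strand): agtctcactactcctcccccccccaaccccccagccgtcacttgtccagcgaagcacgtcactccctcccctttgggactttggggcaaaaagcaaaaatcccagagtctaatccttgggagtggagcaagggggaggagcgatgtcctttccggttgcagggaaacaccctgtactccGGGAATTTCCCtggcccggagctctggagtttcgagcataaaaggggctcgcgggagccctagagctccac
Cxcl2 (chr5:90903649-90903898, plus strand): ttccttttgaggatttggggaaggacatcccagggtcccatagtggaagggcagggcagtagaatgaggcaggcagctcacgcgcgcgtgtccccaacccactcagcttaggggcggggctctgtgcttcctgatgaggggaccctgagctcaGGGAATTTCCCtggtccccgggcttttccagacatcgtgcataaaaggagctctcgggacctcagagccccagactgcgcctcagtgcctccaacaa
Cxcl10 (chr5:92348890-92349139, minus strand): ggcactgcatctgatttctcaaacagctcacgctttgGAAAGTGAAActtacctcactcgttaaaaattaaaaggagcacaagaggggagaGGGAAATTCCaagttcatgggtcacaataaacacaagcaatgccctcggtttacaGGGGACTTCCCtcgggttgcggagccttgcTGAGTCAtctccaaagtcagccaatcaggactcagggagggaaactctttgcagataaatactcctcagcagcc
Cxcl14 (chr13:56296552-56296801, minus strand): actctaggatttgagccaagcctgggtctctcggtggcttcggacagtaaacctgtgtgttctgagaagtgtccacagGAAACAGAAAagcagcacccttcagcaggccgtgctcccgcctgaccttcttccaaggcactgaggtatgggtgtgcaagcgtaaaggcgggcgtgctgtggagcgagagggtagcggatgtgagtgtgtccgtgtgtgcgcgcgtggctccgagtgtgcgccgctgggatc
Ccl6 (chr11:83593088-83593337, minus strand): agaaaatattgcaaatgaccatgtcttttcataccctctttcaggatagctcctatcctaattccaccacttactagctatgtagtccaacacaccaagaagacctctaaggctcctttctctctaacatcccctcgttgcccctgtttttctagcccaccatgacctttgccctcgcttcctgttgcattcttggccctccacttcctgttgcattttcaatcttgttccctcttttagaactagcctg

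Cxcl1 and Cxcl2 each held a pair of NF-kB matches that overlap on opposite strands, the first starting 71 bases before the start of Cxcl1 and 97 bases before that of Cxcl2. Cxcl10 held 3 NF-kB matches, at 159, 104 and 103 bases, of which the last 2 overlap, with a response element core at 213 bases and an AP-1 match at 74 bases. The only match in Cxcl14 was a response element core at 172 bases, and the window of Ccl6 held none of these letters. RefSeq's promoter table matched 32 of the 43 genes by symbol, with 35 promoters. An NF-kB match lay in 6 of the 35, or 17.1%, against 7.25% of all 32851 promoters, and the 6 were Ackr2, Ccl9, Ccr1, Cxcl1, Cxcl2 and Cxcl10. The response element core was found in Ccl19, Cxcl10 and Cxcl14 (8.57%) and in 2.98% of all promoters, and TGANTCA in Ccl9, Ccl27a and Cxcl10 (8.57%) and in 6.75% of all. A match is a run of letters, and no binding was measured.

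The recovered depth was 15006773 to 18238932 reads per liver. One library stood apart: wild type 3 had a median correlation of 0.918 with the other livers across tested genes, where the other 8 had 0.964 to 0.976. Results are therefore given with and without it. The targeted gene stood at 256, 202, 461 and 195 normalised counts in wild type 1 to 4 and at 157, 153, 209, 186 and 172 in Msr1-/- 1 to 5. The groups overlapped through Msr1-/- 3. The mean log2 difference was -0.58 (two-sided exact permutation p = 0.0476, the smallest possible being 0.0159). Leaving out wild type 3 gave -0.31 (exact permutation p = 0.107, with 0.0357 the smallest possible). Reads of Msr1 in each liver labelled Msr1-/- mean that its total does not check the labels clearly, and each direction below rests on the labels. The 8 hepatocyte markers were all abundant, with summed counts of 1300000 to 2352000 per liver.

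Levels of different genes can be compared only per length, as RPKM, which divides reads by exon length and by library depth, shown over all 9 livers. Cxcl12, a homeostatic ligand of CXCR4 that is made by stromal and endothelial cells, had the highest mean, 28.1 RPKM with a range of 21.5 to 32.5. Ccl9, a CCR1 ligand, followed at 15.8 and ranged from 8.45 to 41.1. Only wild type 3 brought it into the range of Cxcl12, since the other 8 livers held at most 17.9. Cxcl9, Cxcl1 and Ccl6 came next at 5.62, 5.49 and 5.36 RPKM over all livers, with overlapping ranges. The order of their means differed by genotype, with Ccl6 at 8.81 ± 7.05 (SD), Cxcl1 at 7.82 ± 1.45 and Cxcl9 at 6.54 ± 4.25 RPKM in wild type. Wild type 3 held 19.3 RPKM of Ccl6 and 11.9 of Cxcl9, where no other liver exceeded 6.65 and 7.84. The lead of Ccl6 in wild type thus rests on that liver. In Msr1-/- livers Cxcl9 was at 4.87 ± 1.12, Cxcl1 at 3.63 ± 1.06 and Ccl6 at 2.60 ± 0.58 RPKM. Among receptors the highest mean was that of Ackr1, the atypical receptor also known as the Duffy antigen, at 1.14 RPKM (0.558 to 2.22). Cxcr4, Ackr2, Cxcr6 and Ccr2 lay between 0.492 and 0.598 RPKM with overlapping ranges. The first 14 places were ligands.

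**Figure D1:**
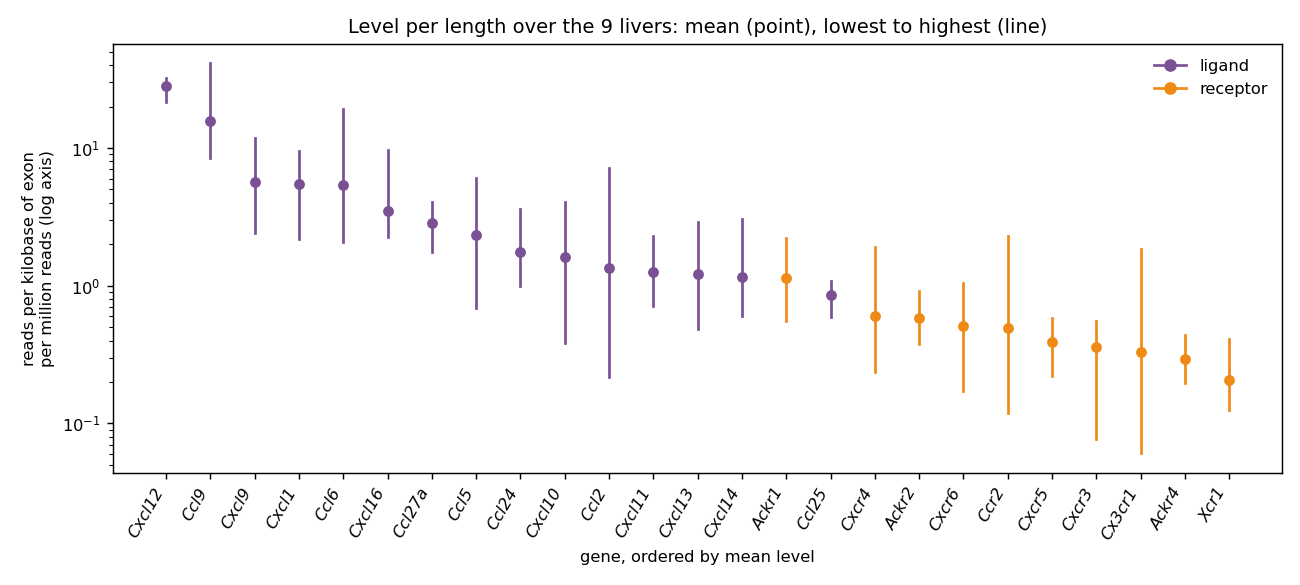
Level per exon length of the tested genes reported here over the 9 livers, on a log axis in RPKM, with points for means and lines from the lowest to the highest liver. Cxcl12 (28.1) and Ccl9 (15.8) lead, and the mean of each receptor lies at or under 1.14, that of Ackr1.

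The comparison asked which of these genes differ in level without the scavenger receptor. Values from here on are the authors' normalised read counts, and differences are log2(Msr1-/- over wild type) from limma on log2(value + 1), a scale that understates the change of low genes. Only Cxcl14 passed the threshold, an adjusted p under 0.05 over all 12937 tested genes, and it was lower. That is 1 of 26 genes, or 3.85%, where 0.703% of all tested genes were called lower. None was called higher, where 0.665% of all tested genes were, and none was higher at an unadjusted p under 0.05 (7.30% of all). Before adjustment, 10 of the 26 lay lower at p under 0.05, against 8.0% of all tested genes. The median log2 difference of the 26 was -0.57, with 20 negative, against 0.02 and 47.3% negative over all tested genes. Without wild type 3 the median was -0.38, 19 were negative (49.5% of all tested genes), and 5 of 26 genes (19.2%) were called lower, against 2.32% of all tested genes. These were Cxcl14, Cxcl1, Ccl6, Cx3cr1 and Cxcl13, and none was called higher (2.59% of all).

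Other tools called between 1 and 6 of the 26 lower and 0 higher. On all livers edgeR called Cxcl14 alone, where it called 0.858% of all tested genes lower and 0.572% higher. DESeq2 called 5, among them Ccl6, Cx3cr1, Cxcl1 and Cxcl14, against 3.60% lower and 2.37% higher. Limma with array weights, which count less on livers far from their group, called Ccl6, Cx3cr1, Cxcl1 and Cxcl14, against 1.96% and 2.14%. Without wild type 3, edgeR called 5 (2.73% lower and 2.35% higher over all) and DESeq2 6 (4.05% and 4.19%), and both calls took in the 5 named above.

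Genotypes did not overlap in 4 of the 26 genes, Cxcl14, Cxcl1, Ccl6 and Cx3cr1. In each, all 5 Msr1-/- livers lay under all 4 wild types, a pattern that 3.99% of all tested genes showed, and none of the 26 had it in the other direction (3.30% of all). Without wild type 3, Cxcl13 and Cxcr5 joined them, giving 6 of 26 against 6.70% of all tested genes, with 0 in the other direction (7.42%).

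**Figure D2:**
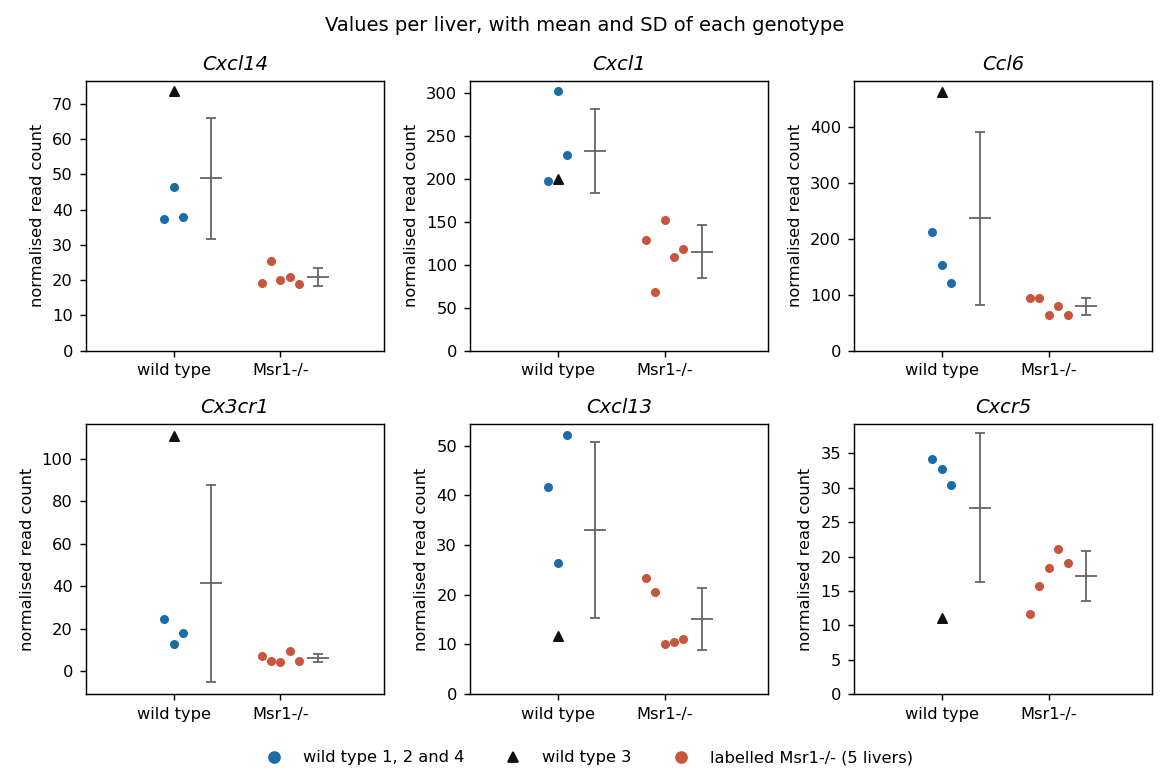
Normalised read counts of 6 genes in each liver, with the mean and SD of each genotype beside the points (n = 4 wild type, n = 5 Msr1-/-). The genotypes are apart in Cxcl14, Cxcl1, Ccl6 and Cx3cr1, while wild type 3 lies among the Msr1-/- livers in Cxcl13 and just under them in Cxcr5.

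Among ligands of CXCR2, the neutrophil receptor, only Cxcl1 was abundant enough to be tested. Cxcl1 (chromosome 5, 90891241 to 90893115, plus strand in GRCm38, the assembly of mm10) stood at 198, 303, 201 and 229 in wild type 1 to 4. It stood at 129, 68.5, 153, 109 and 119 in Msr1-/- 1 to 5. All Msr1-/- values were below the lowest wild type, and wild type 3 was not high for this gene. The mean was 232.5 ± 48.9 (SD, n = 4) against 115.7 ± 30.9 (SD, n = 5), a log2 difference of -1.03 ± 0.23 (SE) and a limma adjusted p of 0.0525, just over the threshold. It fell 2.13-fold without wild type 3 (limma adjusted p = 0.0242). In the other 8 reruns without 1 liver the adjusted p ran up to 0.114. Cxcl2 and Cxcl5, also ligands of CXCR2, had means of 9.37 ± 4.01 against 6.31 ± 3.34 and 4.75 ± 8.88 against 0.60 ± 0.55 and were not tested. Almost all Cxcl5 came from wild type 3, with 18.0, where no other liver exceeded 1.06. Their receptor gene Cxcr2 stood at 8.56, 7.39, 13.3 and 3.80 in wild type and at 3.18, 2.94, 2.74, 1.17 and 4.01 in Msr1-/-, a mean under 10 and so not tested.

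The interferon-induced ligands of CXCR3 were not called. Cxcl9 stood at 419, 123, 479 and 189 in wild type 1 to 4 and between 188 and 300 in the Msr1-/- livers, so the wild types spanned a wider range that held all the Msr1-/- livers. Its log2 difference was -0.09, with a 95% interval of -0.88 to 0.69. Cxcl10 was 60.1 ± 47.4 against 56.1 ± 16.0, at 0.25 (-0.86 to 1.36), and 0.71 without wild type 3 (limma adjusted p = 0.346). Cxcl11 was 82.5 ± 41.2 against 76.2 ± 22.9, at -0.02 (-0.80 to 0.76). These intervals take in a difference of more than 1.5-fold in either direction, so equal levels are not shown. Cxcl11 is known to carry a frameshift in C57BL/6 mice, so its transcript makes no working ligand in that strain. The receptor Cxcr3, a marker of activated T cells, was 11.1 ± 5.0 against 9.73 ± 5.05 (-0.29, limma adjusted p = 0.868). Sums of T cell markers overlapped too, at 109 to 205 against 69.9 to 167, though only through wild type 3. The other wild types held 169.9 to 205, just above the Msr1-/- livers. This went with Cd4, which was 7.845 in wild type 3, 86.5 to 90.9 in the other wild types and 27.4 to 71.1 in Msr1-/-. Each of the other T cell markers overlapped between genotypes with or without wild type 3.

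Cxcl14, a ligand made by epithelial and stromal cells, was the gene past the threshold on all 9 livers. It lies on chromosome 13, 56288643 to 56296551, minus strand. Wild type 1 to 4 held 37.4, 46.4, 73.7 and 38.0, and Msr1-/- 1 to 5 held 19.1, 25.4, 20.1, 21.1 and 19.0. The Msr1-/- livers were close to one another and all under the lowest wild type, while wild type 3 was the highest. The mean of 48.9 ± 17.1 (SD, n = 4) against 20.9 ± 2.7 (SD, n = 5) gave a 2.20-fold lower level, a log2 difference of -1.14 ± 0.24 (SE) and a limma adjusted p of 0.0489. The call held without wild type 3 (1.90-fold, limma adjusted p = 0.0307) and ended on leaving out any other liver. The adjusted p was then 0.0729, 0.0978 and 0.0534 without wild type 1, 2 and 4, and 0.106, 0.0906, 0.116, 0.0984 and 0.111 without Msr1-/- 1 to 5. Cxcl14 rests on 18 to 94 reads per liver.

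Among the other CXC ligands, Cxcl13 draws B cells through CXCR5. Its values were 41.7, 26.4, 11.8 and 52.2 in wild type 1 to 4 and 23.3, 20.6, 10.04, 10.5 and 11.02 in Msr1-/- 1 to 5. Wild type 3 was the lowest wild type and lay among the Msr1-/- livers. On all livers the log2 difference was -0.98 ± 0.44 (SE, limma adjusted p = 0.318), and without wild type 3 it was a 2.61-fold fall (limma adjusted p = 0.0435). Its receptor Cxcr5 had the same low value in wild type 3: 34.2, 32.7, 10.98 and 30.4 against 11.7, 15.7, 18.3, 21.1 and 19.0. The log2 difference of Cxcr5 was -0.54 (limma adjusted p = 0.534) on all livers and -0.91 (0.0621) once wild type 3 was left out. Summed B and plasma cell markers lay between 584 and 976 in wild type, lowest in wild type 3, and between 223 and 392 in Msr1-/-, and their part in these values was not tested.

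Cxcl16, a membrane-bound ligand of CXCR6 that also binds oxidised lipoprotein, stood at 124, 149, 390 and 197 in wild type and between 122 and 136 in Msr1-/-. Wild type 1 lay within the Msr1-/- range and wild type 3 far above it. The log2 difference was -0.61 (limma adjusted p = 0.32), and -0.28 without wild type 3 (adjusted p = 0.334). The receptor Cxcr6, found on liver T and NKT cells, was 32.1, 10.6, 26.7 and 23.7 against 5.30, 11.7, 10.04, 9.36 and 14.03. All 5 Msr1-/- livers lay under wild type 1, 3 and 4, while wild type 2 lay among them (-1.08 ± 0.38, SE, limma adjusted p = 0.197). Cxcl12 stood at 4609, 2996, 2816 and 3418 against 3996, 4124, 3722, 3993 and 4591. The groups overlapped, at 0.26 (95% interval -0.06 to 0.59, limma adjusted p = 0.448). The receptor of Cxcl12 that signals, Cxcr4, was 11.8, 23.2, 46.3 and 19.9 against 13.8, 8.81, 8.22, 8.19 and 11.02, with wild type 1 among the Msr1-/- livers, at -1.12 ± 0.38 (SE, limma adjusted p = 0.181).

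Ligands of CCR2, the receptor of inflammatory monocytes, were high in 1 liver. Ccl2, or monocyte chemoattractant protein 1, stood at 14.97, 4.22, 108 and 15.2 in wild type 1 to 4 and at 15.9, 14.7, 10.96, 10.5 and 7.01 in Msr1-/-. Wild type 3 was 9.45 times the mean of the other wild types, which overlapped the Msr1-/- livers. The log2 difference was -0.66 (95% interval -2.20 to 0.88) and 0.17 without wild type 3. Ccl7 and Ccl12 had means of 11.4 ± 17.6 against 0.97 ± 0.65 and 1.84 ± 3.002 against 0.88 ± 1.52, and wild type 3 held 37.7 and 6.28 of them. The receptor Ccr2 went with them at 49.2, 13.7, 206 and 38.9 against 42.4, 29.4, 28.3, 23.4 and 19.0. Its log2 difference of -0.80 (limma adjusted p = 0.598) was -0.12 without wild type 3.

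Among ligands of CCR1 and related receptors, Ccl6 was the one whose genotypes did not overlap. Ccl6, which macrophages and other myeloid cells of rodents make, lies on chromosome 11, 83587882 to 83593087, minus strand. It stood at 212, 153, 461 and 121 in wild type 1 to 4 and at 94.3, 94.0, 63.9, 79.5 and 64.1 in Msr1-/- 1 to 5. All wild types were above all Msr1-/- livers. The log2 difference was -1.39 ± 0.33 (SE, limma adjusted p = 0.0686), from 237 ± 155 to 79.2 ± 15.1. Without wild type 3 it fell 2.01-fold (limma adjusted p = 0.0213), and it also passed with wild type 4 left out (0.0453). In the other 7 reruns without 1 liver it did not pass, with adjusted p up to 0.158.

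The neighbour of Ccl6, Ccl9, stood at 967, 536, 1666 and 835 against 409, 448, 622, 538 and 857. The genotypes overlapped, with wild type 2 below 3 of the Msr1-/- livers (-0.73 ± 0.30, SE, limma adjusted p = 0.275). Ccl5, made by T and natural killer cells, was 45.4 ± 22.1 against 28.3 ± 15.3 (-0.73, limma adjusted p = 0.472). Ccl3 and Ccl4 had means under 10, and wild type 3 and 4 held most of them: 29.0 and 12.3 of Ccl3, and 41.6 and 11.4 of Ccl4, where no other liver exceeded 7.42 and 5.48. Ccr1 was at 5.35, 4.22, 30.6 and 0.95 against 3.18, 0, 0, 7.02 and 0, too low to test.

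None of the remaining CC ligands with a test was called. Ccl24, an eosinophil attractant, was 45.7 ± 29.1 against 33.1 ± 7.3 (-0.25, limma adjusted p = 0.846), and wild type 1 stood highest at 83.4. Ccl25, known for drawing CCR9-bearing lymphocytes to gut, was 102 ± 32 against 111 ± 6 (0.19, 95% interval -0.29 to 0.66). Ccl27a was 116 ± 50 against 112 ± 26 (0.04, -0.62 to 0.70). Wild type 3 held the lowest value of all 3, at 17.3, 58.8 and 55.7. The directions of Ccl25 and Ccl27a turned without it, to -0.05 and -0.27.

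Among the other leukocyte receptors, Cx3cr1, the fractalkine receptor of monocytes and macrophages, had the widest difference of any tested gene here. It lies on chromosome 9, 119901616 to 120069879, minus strand. Its values were 24.6, 12.7, 111 and 18.0 in wild type 1 to 4 and 7.42, 4.89, 4.57, 9.36 and 5.01 in Msr1-/- 1 to 5. The genotypes did not overlap, and wild type 3 was 6.00 times the mean of the other wild types. The log2 difference was -2.06 ± 0.55 (SE, limma adjusted p = 0.0928). It fell 2.67-fold without wild type 3 (limma adjusted p = 0.0488), and did not pass in any of the other 8 reruns without 1 liver, with adjusted p up to 0.202. The Msr1-/- values rest on few reads, the lowest liver holding 5. Its ligand Cx3cl1 stood at 1.07, 3.17, 36.9 and 13.3 against 3.18, 7.83, 0.91, 4.68 and 4.01 and was not tested.

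Xcr1, which marks cross-presenting dendritic cells, was 15.3 ± 6.9 against 14.5 ± 2.6 (0.00, 95% interval -0.71 to 0.72). Its ligand Xcl1 was 8.14 ± 3.99 against 3.11 ± 2.08 and not tested. Ccr7, which guides cells to lymph nodes, was 10.7 ± 8.6 against 6.03 ± 1.12 with 23.5 in wild type 3, and had a mean under 10.

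The atypical receptors were not called. Ackr1 stood at 13.9, 25.3, 41.6 and 38.0 against 14.8, 28.4, 32.0, 17.5 and 20.0 (-0.33, 95% interval -1.11 to 0.45). Ackr2, which takes up inflammatory CC ligands, was 30.6 ± 8.7 against 28.7 ± 5.6 (-0.06, -0.62 to 0.49). Ackr4, a scavenger of homeostatic ligands such as Ccl19 and Ccl21a, was 24.7 ± 11.1 against 27.9 ± 7.5 (0.22, -0.50 to 0.94).

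**Figure D3:**
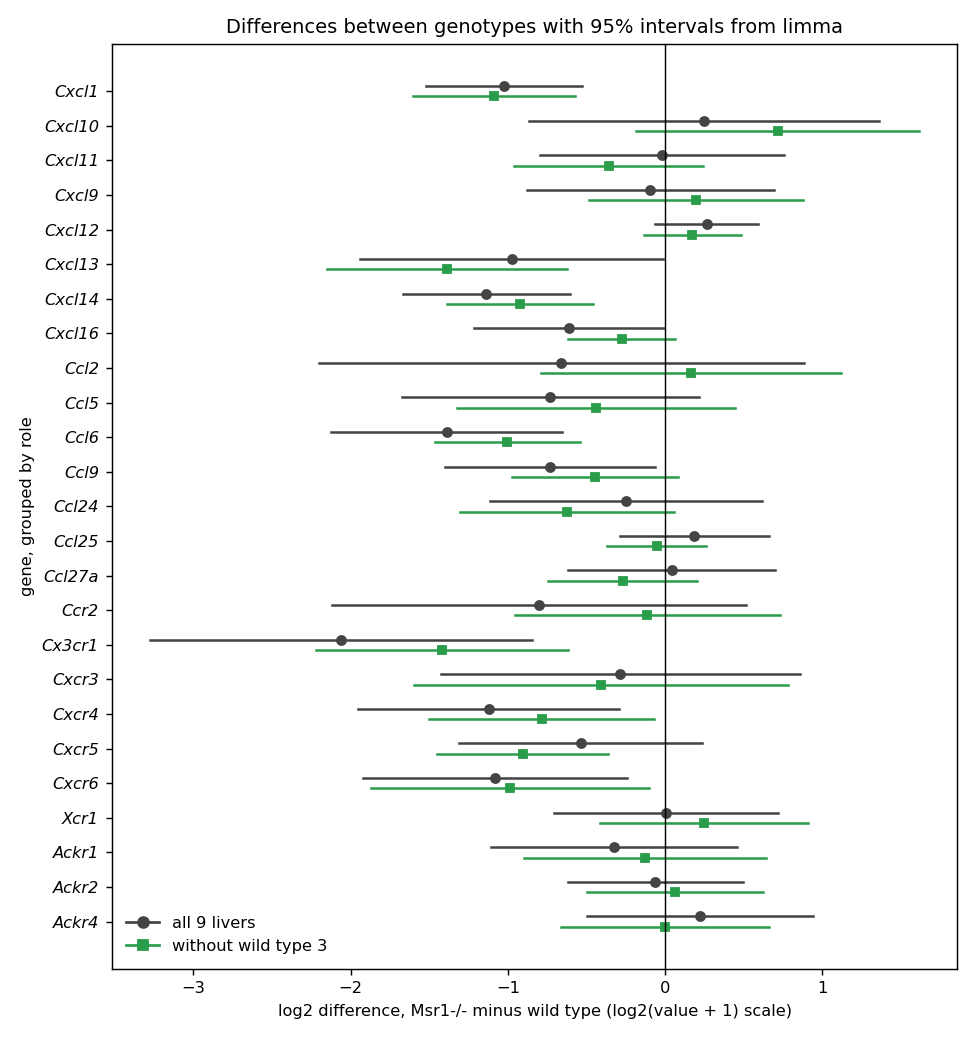
Log2 difference of each tested gene reported here with its 95% interval from limma, on all 9 livers (circles) and without wild type 3 (squares), on the log2(value + 1) scale. Intervals of Cxcl1, Cxcl13, Cxcl14, Ccl6, Cx3cr1, Cxcr4 and Cxcr6 lie below 0 in both fits, and the point of Ccl2 moves from -0.66 to 0.17 without wild type 3.

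The 17 genes with a mean under 10 had means between 1.31 and 8.44 and were not tested. They were 12 ligands and 5 receptors. Wild type 3 held the highest value of 14 of them. The Msr1-/- mean was the lower one in 14 of the 17, and in 11 with wild type 3 left out. Those with a higher Msr1-/- mean on all livers were Ccl21a, Ccl28 and Ccr9. Ccl28, an epithelial ligand, stood at 6.42, 0, 1.57 and 1.90 against 13.8, 5.87, 0.91, 5.85 and 9.02, with overlap. Ccl22, a ligand of CCR4 made by dendritic cells and macrophages, was at 1.07, 0, 16.5 and 11.4 against 1.06, 1.96, 0.91, 1.17 and 4.01, highest in wild type 3 and 4.

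Beyond the named families, 5 related genes fell outside the name rule, and none was called. The platelet chemokine Pf4 was 17.7 ± 12.4 against 9.997 ± 4.553 (-0.66, limma adjusted p = 0.541), and Ppbp, another platelet chemokine, was 13.4 ± 4.3 against 10.6 ± 7.4 (-0.47, adjusted p = 0.709). Ccrl2, Cklf and Mif had log2 differences of -0.03, 0.15 and 0.11.

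Of 47 other genes that act downstream of chemokine receptors or process chemokines, 45 were tested, and 2 were called lower and 0 higher, against 0.703% and 0.665% of all tested genes. Leaving out wild type 3, 4 were called lower, against 2.32%. The list's median log2 difference was -0.16 with 35 of 45 negative, against 0.02 and 47.3% over all tested genes. It was -0.12 without wild type 3, with 28 negative, against 49.5% of all. Grk3, a kinase that shuts down activated G protein-coupled receptors such as CXCR4, stood at 109, 109, 135 and 90.1 in wild type and at 43.5, 49.9, 60.3, 57.3 and 58.1 in Msr1-/-. No Msr1-/- liver reached the lowest wild type. It fell 1.02 ± 0.17 (SE) on the log2 scale with a limma adjusted p of 0.0221. Rgs2, a regulator that speeds the switching off of G proteins, stood at 136, 123, 253 and 103 against 64.7, 59.7, 53.0, 43.3 and 48.1, also without overlap. It fell by 1.43 ± 0.25 (SE, limma adjusted p = 0.0252). The call of Rgs2 was kept without wild type 3 or wild type 4 and lost without any other liver (adjusted p up to 0.0718). That of Grk3 was kept without wild type 3, wild type 4, Msr1-/- 3 or Msr1-/- 5 and lost without any other liver (adjusted p up to 0.0671). The leukocyte GTPase Rac2, 297 ± 156 against 127 ± 23, had a limma adjusted p of 0.0763 and was called lower once wild type 3 was left out (0.0288).

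Summed markers of several leukocyte types were lower in the Msr1-/- livers, though few single markers were called. Summed counts of 12 Kupffer cell and macrophage markers lay between 8744 and 18950 in wild type and between 5334 and 7186 in Msr1-/-. All 12 had negative log2 differences, and 2 were called lower, against 0.703% of all tested genes. Leaving out wild type 3, 5 were called, against 2.32%, and the other wild types lay between 8744 and 11360. Of the B and plasma cell markers 1 of 7 tested was called lower, and of the monocyte, neutrophil, T cell, natural killer cell and dendritic cell markers 0 were called on all livers. Without wild type 3, 3 of 7 B and plasma cell and 2 of 4 monocyte markers were called lower. So were 1 of 3 neutrophil and 1 of 2 natural killer cell markers, where 2.32% of all tested genes were called lower. T cell and dendritic cell markers had 0. The 7 monocyte markers summed to 1220 to 5650 against 670 to 987, highest in wild type 3, with 1796 the highest of the other wild types. Most of each sum was Lyz2, at 904 to 4949 against 506 to 795. Lyz2, Plac8, Fcgr1 and Ms4a4c did not overlap between genotypes, while Ly6c2, Itgam and Chil3 did. Neutrophil markers summed to 130 to 284 against 55.1 to 117, and natural killer cell markers to 69.3 to 126 against 44.4 to 53.0. The largest part of each natural killer cell sum was Klrk1, at 37.95 to 62.02 against 24.46 to 28.61. Klrk1 and Ncr1 did not overlap between genotypes, while Klrb1c, Nkg7, Gzma and Klra8 did. Cholangiocyte markers summed to 619.3 to 1686 against 251.5 to 546.1, most of it Spp1, which macrophages also make. Krt19, Krt7, Epcam and Cldn7 overlapped between genotypes, while Spp1 and Sox9 did not. Of the 3 tested, only Sox9 was called lower, at 56.97 to 88.65 against 23.32 to 35.08 (limma adjusted p = 0.0103). Its call held without wild type 3 (limma adjusted p = 0.00718). Dendritic cell markers summed to 252.4 to 327.9 against 161.1 to 252.0. Sums of sinusoidal endothelium (4046 to 4660 against 3691 to 4396), hepatic stellate cell (4996 to 8678 against 4957 to 5962) and T cell markers overlapped. Those of T cell markers overlapped only through wild type 3, which held 7.845 of Cd4 where the other wild types held 86.5 to 90.9. Each of the other T cell markers overlapped between genotypes with or without that liver. The neutrophil marker Ly6g was not found in the table, and Ly6c2, a monocyte marker, and Ncr1, a natural killer cell marker, had means under 10. In whole liver, fewer cells of a type and less RNA per cell cannot be told apart. The part of these marker levels in the chemokine results was not tested.

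**Figure D4:**
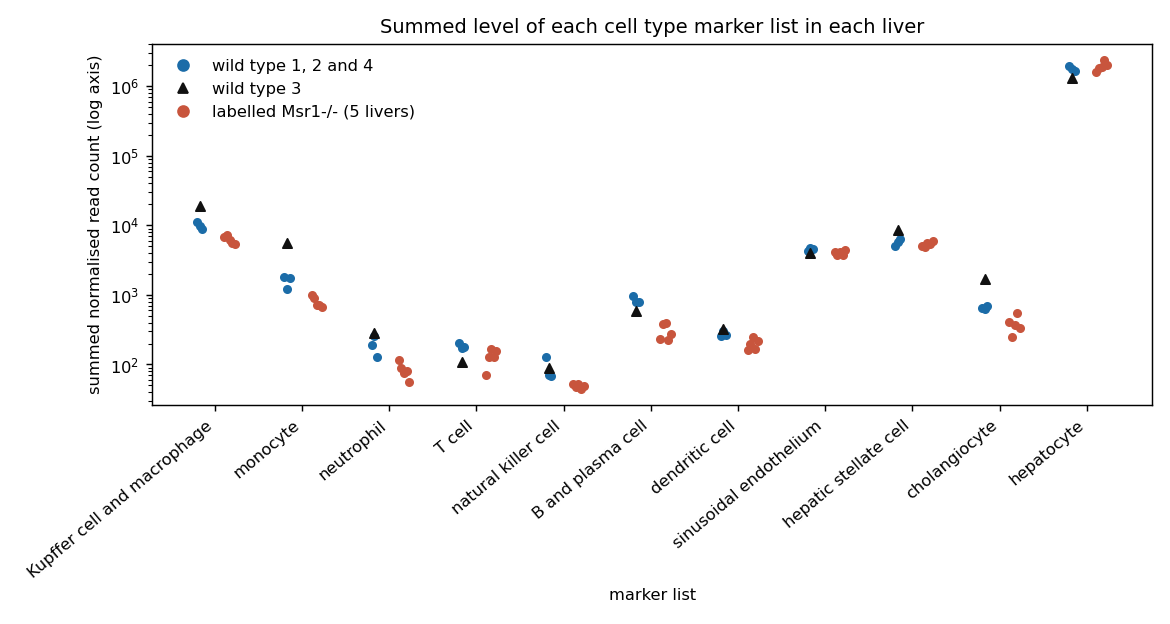
Summed normalised read count of each cell type marker list in each liver, on a log axis. Wild type 3 (triangle) holds the highest sums of macrophage (18950) and monocyte (5650) markers and the lowest of hepatocyte markers.

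Some counts may include reads of other genes. Per the GENCODE M21 annotation, 71.6% of the 50-base stretches of Ccl21a, 52.0% of Ccl19 and a smaller share of Ccl27a also occur in transcripts of other genes, mostly copies in the same family. Cxcl11 shares 40.4%, mainly with Gm2673 on the opposite strand, Ackr1 20.4% with Cadm3, and Cxcl16 16.9% with Zmynd15 on the opposite strand. No strand setting of the counting is given in the sources used here, so reads of partners on the opposite strand cannot be told apart. Cadm3 lies on the same strand as Ackr1, where a strand setting would not separate their reads. Cxcl1, Cxcl14 and Ccl6 share none, and Cx3cr1 shares 1.06%.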

How the data were processed

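RNA was sequenced from whole liver, 1 TruSeq library per animal, per the labels' protocols. The submitters' processing notes list STAR, HTSeq, DESeq2 and mm10, without versions. The authors deposited 1 table of signal: reads per gene, scaled by 1 size factor for each liver. Dividing each column by the value of 1 read gave whole reads (within 0.01) for 100% of values in each liver. Animals are separate samples, and no batch is named in the labels.

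Differences were tested on log2(value + 1) with limma 3.58.1 (R 4.3.3, intensity trend, genotype alone) in 12937 genes averaging at least 10, with Benjamini-Hochberg adjustment over all of them and a threshold of 0.05. Errors and 95% intervals are limma's. The chemokine genes, role, pathway and marker lists were chosen with earlier results of these data known. By rule the text names each tested chemokine gene (1 is counted but not reported here), Msr1, the related genes outside the name rule, and those of the pathway list that were called or had its smallest p. Recovered reads were also tested in DESeq2 1.42.0 and by quasi-likelihood in edgeR 4.0.16. Tried besides in limma were pseudocounts of 0.5 and 5, 2 other filters, scaling by quantiles or TMM, array weights, animal number as a block, and omission of single livers. In simulated data of 12937 genes limma recovered 48% of 2-fold and 90% of 4-fold changes, and 4.83% of 145 calls were false.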

Additional observations from a re-analysis of the deposited data

Results flagged for a closer look

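In 54 sets of values (26 tested genes and Msr1, each in 2 genotypes), 3 held a liver whose gap to its nearest neighbour exceeded Dixon's 95% critical value. Chance flags about 1 in 20 such sets. All 3 were wild type 3. It held 108.3 of Ccl2, where the other wild types held 4.22 to 15.18, and 110.6 of the fractalkine receptor gene Cx3cr1, where they held 12.66 to 24.59. In Cxcr5, the homing receptor gene of B cells, it lay below instead, at 10.98 against 30.36 to 34.22.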

How the results depend on the processing

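Cxcl14, the 1 chemokine gene called on all livers, was also called with pseudocounts of 0.5 and 5, TMM scaling and edgeR. The count of chemokine genes called lower was 0 with no filter, with a mean of 50 or more (where Cxcl14 is not tested) and with quantile scaling, 5 with DESeq2 and 4 with array weights. Without wild type 3 it was 5 in edgeR and 6 in DESeq2, and it ran from 0 to 5 over the fits that each left out 1 liver. The count called higher was 0 in every alternative. Of all tested genes, 177 were called, against 773 in DESeq2, 531 with array weights, 657 in edgeR and 1066 in DESeq2 without wild type 3, and 36 to 629 with 1 liver left out. The log2 difference of Msr1 ran from -0.719 to -0.306 with 1 liver left out. The cause of these changes was not tested. Depth limits low genes such as Cx3cr1, with 5 to 141 reads per liver.

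With the animal number as a replicate block, a fit that drops Msr1-/- 5, 0 chemokine genes and 10 genes in all were called. Deviations of same-numbered animals correlated at 0.025, -0.077, -0.1 and 0.22, and no label says that a number pairs animals.

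Signs turned only in genes that were not called. Ackr2 turned to 0.0938 with quantile scaling, 0.0185 in edgeR and 0.0245 in DESeq2 without wild type 3, 0.000475 with array weights, and ran from -0.242 to 0.0606 with 1 liver left out. Ackr4 turned to -0.0113 in edgeR and -0.00784 in DESeq2 without wild type 3, and Ccl2 to 0.0254 and 0.034. Ccl25 turned to -0.0755 and -0.0696 there and to -0.036 with array weights, and Cxcl9 to 0.0244, 0.0248 and 0.287. Ccl27a was -0.0514 in edgeR and -0.0518 in DESeq2, -0.296 and -0.289 without wild type 3, and -0.284 with array weights. Cxcl10 was -0.117 in edgeR and -0.108 in DESeq2, and Cxcl11 was 0.095 with quantile scaling. Xcr1 was -0.00857 with a pseudocount of 5, -0.000233 with TMM scaling, -0.0918 in edgeR, -0.0938 in DESeq2 and -0.0727 in the block. With 1 liver left out, the log2 difference ran from -1.3 to 0.166 for Ccl2, -0.625 to 0.112 for Ccl24, -0.0533 to 0.313 for Ccl25 and -0.27 to 0.243 for Ccl27a. It ran from -0.454 to 0.196 for Cxcl9, -0.271 to 0.715 for Cxcl10, -0.36 to 0.264 for Cxcl11, -0.177 to 0.246 for Xcr1 and -0.496 to 0.111 for Cxcr3, which was tested in 6 of the 9 fits.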
